A study of Mus musculus with 5 samples.

Results

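The cyclic nucleotide phosphodiesterases described here are 8 genes, Pde3b, Pde4a, Pde4b, Pde4d, Pde7a, Pde7b, Pde8a and Pde10a, of the 32285 genes counted in single-nucleus RNA sequencing of the mouse brain. They were listed by name and chosen by the measured level of Pde4d in microglia, which was lower with an active cGAS allele than in controls, so that their levels in microglia are given as a description, without a test. All 8 were found under their symbols. There were 5 libraries, each from 1 mouse. The R241E group had 2 mice carrying the Tmem119-creERT2 driver and Cgas wt/R241E, an allele of the DNA sensor cGAS that escapes its restraint by nucleosomes. The WT group had 3 mice carrying the same driver with Cgas wt/wt. Per the methods, tamoxifen switched the allele on in young adult mice, and the driver acts mainly in microglia and brain macrophages, so the other classes of nuclei were largely not the target. The main text of the study names heterozygous controls for this experiment, whereas its methods and the sample titles name wild-type ones, and the titles were followed. The labels give hippocampus as the tissue and microglia as the cell type, from nuclei sorted as negative for NeuN and Olig2, proteins of neuronal and oligodendrocyte-lineage nuclei.

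Phosphodiesterases break down the second messengers cyclic AMP and cyclic GMP, which are made by adenylyl and guanylyl cyclases and act through protein kinases A and G, Epac proteins and ion channels. Cyclic AMP is made when receptors coupled to a stimulatory G protein are occupied, and in macrophages and microglia it generally restrains inflammatory gene expression. The PDE4, PDE7 and PDE8 enzymes are specific for cyclic AMP, PDE3 enzymes cleave cyclic AMP and are inhibited by cyclic GMP, and PDE10A cleaves both. PDE4 is the target of rolipram and related anti-inflammatory drugs.

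Of 9748 nuclei deposited, 9505 were kept. They fell into 25 clusters, from which marker genes named 7 classes that had no fewer than 20 nuclei in any library, and 550 nuclei stayed unnamed. Lymphocytes (193 nuclei), monocytes or neutrophils (207) and endothelial cells (60) were also named but had fewer than 20 nuclei in at least 1 library. Only the 7 classes are compared below. Microglia were 5359 nuclei, 1516 of them from R241E and 3843 from WT. Libraries held 1357 to 2403 kept nuclei and 4183709 to 10130667 transcripts, counted as unique molecular identifiers (UMIs). The sort left other classes in, and 1 neuronal cluster of 43 nuclei was led by Gabra6, Fat2 and Neurod1, genes of cerebellar granule cells, against the hippocampus label. All 10 microglial markers were detected in the microglia of every library, with a summed level of 8069 to 9471 CPM (a gene's share of all UMIs in the nuclei summed, scaled to 1e+06). Levels below are CPM of nuclei summed per library and class. Because longer genes collect more nuclear RNA, each gene is compared across classes and not with other genes.

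Each of the 8 genes had its own order of classes, and 6 of the 7 classes held the highest median of at least 1 gene. Microglia were highest for Pde3b, border-associated macrophages (BAM, the macrophages of the meninges and perivascular spaces) for Pde7a, oligodendrocytes for Pde4b and Pde8a, neurons for Pde4a and Pde10a, mural cells for Pde4d and fibroblasts for Pde7b. Ranges over the 5 libraries follow as lowest, median and highest.

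**Figure D1:**
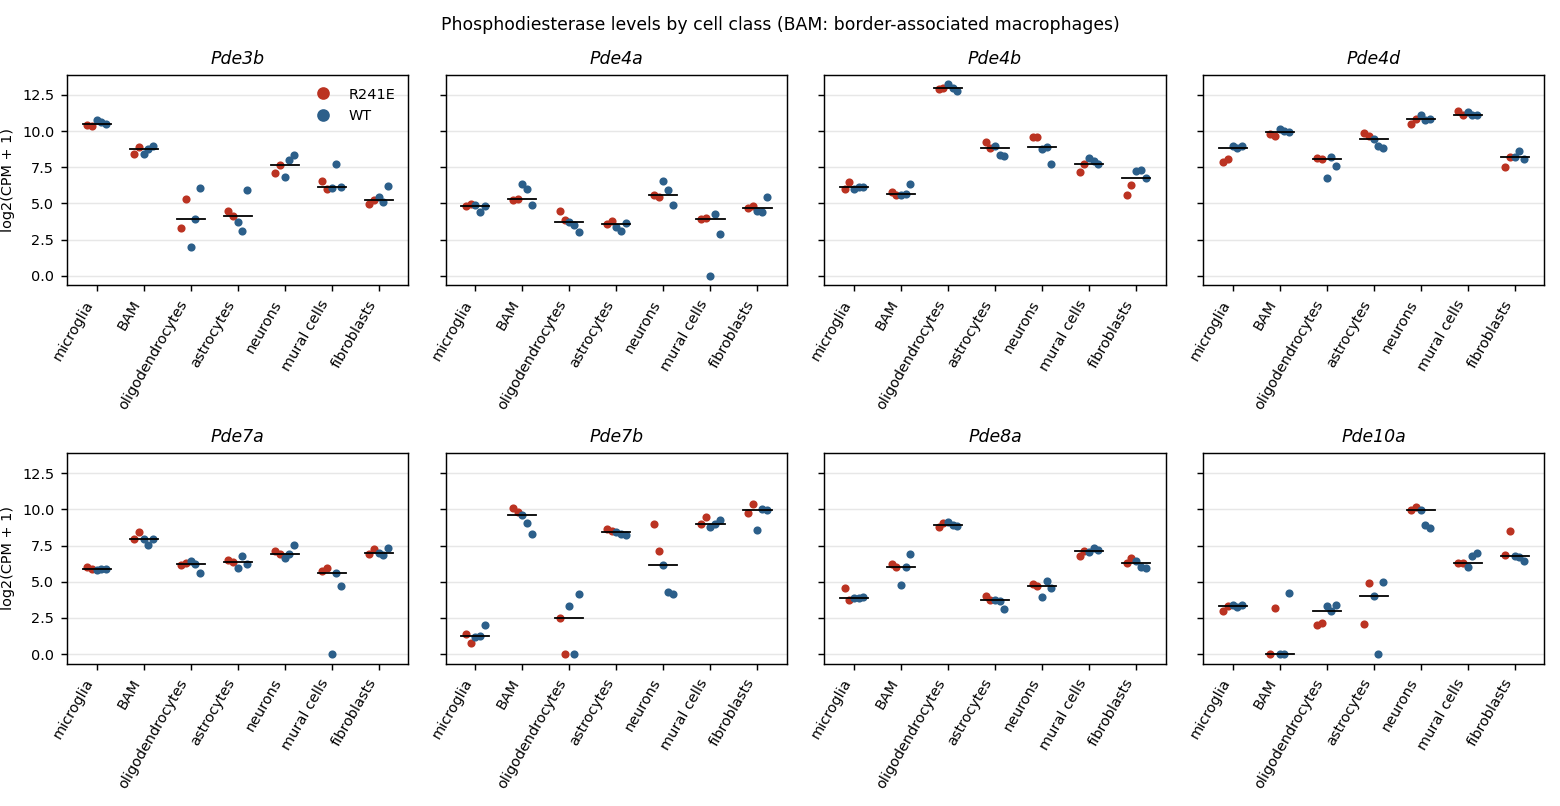
Level of each phosphodiesterase gene as log2(CPM + 1) in 7 classes of nuclei, with a point per library (red, R241E, n = 2, blue, WT, n = 3) and a line at the median of the 5 libraries. Pde4b and Pde8a stand highest in oligodendrocytes, Pde3b in microglia and Pde10a in neurons, while Pde7b is near 0 in microglia.

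Pde3b, which lies at chr7:114415222-114537938 in GRCm38.p6, the build called mm10, encodes an enzyme best known for carrying out the action of insulin on cyclic AMP in fat and liver. In microglia it had 1313, 1427 and 1733 CPM, and in BAM 333, 426 and 506 CPM. The ranges did not overlap, and within each library microglia had 2.74 to 5.20 times the BAM level. Neurons followed with a median of 196 CPM and a highest value of 321 CPM, just under the lowest BAM library. Astrocytes (median 16.7 CPM) and oligodendrocytes (14.0 CPM) were lowest, with overlapping ranges. In BAM, Pde3b was at 0.192 to 0.365 times its microglial level by library, and the summed microglial markers at 27.0% to 29.1% of theirs. Single markers differed widely. Over all libraries, Tmem119 was at 0.0 CPM in BAM and 117 CPM in microglia, and Csf1r at 781 and 1047 CPM. How much of the BAM Pde3b signal came from microglial transcripts was not tested. Over the 35 sums of 7 classes and 5 libraries, the genes whose log2(CPM + 1) followed Pde3b most closely were Siglech (Pearson r = 0.96), Myo1f (0.96) and Lyn (0.94), the first a microglial surface lectin. These sums share libraries, and the r values describe the order of classes only.

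Pde4d, at chr13:108654177-109955969, is a gene of 1301.8 kb and the longest of the 8. It encodes a cyclic AMP enzyme found in many tissues and bound to A-kinase anchoring proteins. Mural cells had 2194, 2235 and 2653 CPM and neurons 1431, 1841 and 2175 CPM, so that all mural libraries exceeded all neuronal ones by a narrow margin. BAM had 818, 961 and 1150 CPM, below the neurons. Astrocytes (451 to 946 CPM) overlapped with BAM and with microglia (234, 450 and 510 CPM), and fibroblasts (178 to 398 CPM) and oligodendrocytes (109 to 295 CPM) overlapped with each other. BAM exceeded microglia in all 5 libraries, by 1.96 to 2.29 times in WT and by 3.11 and 3.74 times in R241E. The nearest genes in the pattern across classes were Ndst3 (r = 0.82), Map3k20 (0.80) and Tmem191c (0.80).

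Pde4b, at chr4:102087332-102607275, encodes the PDE4 enzyme tied most closely to inflammatory responses of myeloid cells. In these nuclei it was highest in oligodendrocytes, with 6883, 7860 and 9692 CPM, 16.5 times the median of the next class. Neurons (208 to 783 CPM) and astrocytes (308 to 591 CPM) overlapped with each other. Microglia had 62.4, 68.0 and 88.9 CPM and BAM 45.7, 50.1 and 80.5 CPM, again overlapping. The microglial level was 0.644% to 1.13% of that in the oligodendrocytes of the same library, while the summed oligodendrocyte markers in microglia were at 0.938% to 1.96% of their own level in oligodendrocytes. Single oligodendrocyte markers ranged from 0.102% (St18) to 20.4% (Cnp) as the ratio of the medians over libraries, with a median over the list of 1.49%. How much of the microglial Pde4b signal came from oligodendrocyte transcripts was not tested. Map7 (r = 0.95), the noncoding gene Gm26673 (0.93) and Iqsec1 (0.93) followed its pattern.

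Pde8a, at chr7:81213265-81334535, encodes an enzyme with high affinity for cyclic AMP. It was likewise highest in oligodendrocytes, with 442, 488 and 552 CPM, and no other class came near, mural cells being next at 108, 138 and 161 CPM. Microglia had 12.5, 13.8 and 22.4 CPM, 2.39% to 5.06% of the oligodendrocyte level. Its nearest genes were Tcf12 (r = 0.90), Ywhaq (0.86) and Dock9 (0.86).

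Promoter sequence is given for Pde4d, the gene by which the list was chosen, and for Pde4b and Pde8a, which share oligodendrocytes as their highest class. RefSeq start sites were at hand for 6 of the 8 genes in 12 windows (Pde3b and Pde7a had none), and the 250 bases before each were searched on both strands for the cyclic AMP response element TGACGTCA bound by CREB, its core TGACG, the interferon-stimulated response element core GAAANNGAA and the gamma-activated site TTCNNNGAA, with the core contained in the full element. The full element was in none of the 12 windows, against 1.55% of the 32851 windows of all genes. The core was in 1 window each of Pde4b, Pde8a and Pde4a, against 17.8% of all windows. The interferon element was in none, against 7.13%, and the gamma-activated site in 1 window of Pde4b, against 7.02%. Matches are in capitals and no match says only that these letters are not in the window. The sequences run 5′ to 3′ on the plus strand of GRCm38.p6 at chr13:108653927-108654176 (Pde4d), chr4:102421305-102421554 (Pde4b, the first of 4 windows) and chr7:81213015-81213264 (Pde8a).
Pde4d: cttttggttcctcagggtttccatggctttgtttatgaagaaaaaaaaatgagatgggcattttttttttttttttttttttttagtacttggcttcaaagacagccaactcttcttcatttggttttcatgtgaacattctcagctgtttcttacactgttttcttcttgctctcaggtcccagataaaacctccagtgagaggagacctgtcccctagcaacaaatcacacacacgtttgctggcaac
Pde4b: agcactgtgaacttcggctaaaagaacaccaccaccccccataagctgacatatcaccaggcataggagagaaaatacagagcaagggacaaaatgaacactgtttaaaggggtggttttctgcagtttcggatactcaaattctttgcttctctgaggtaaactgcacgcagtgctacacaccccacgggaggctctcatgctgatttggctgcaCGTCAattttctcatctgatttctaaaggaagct
Pde8a: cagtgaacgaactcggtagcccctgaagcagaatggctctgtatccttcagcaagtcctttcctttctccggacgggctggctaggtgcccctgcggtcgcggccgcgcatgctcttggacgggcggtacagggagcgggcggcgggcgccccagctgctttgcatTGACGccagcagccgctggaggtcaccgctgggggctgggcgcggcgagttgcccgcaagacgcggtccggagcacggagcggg

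Pde7b, at chr10:20397052-20725078, showed the widest separation of the macrophage classes. BAM had 316, 784 and 1096 CPM, whereas microglia had 0.695, 1.38 and 3.00 CPM, from 25 UMIs in all 5359 nuclei. Fibroblasts (373, 1013 and 1322 CPM), BAM and mural cells (441, 496 and 695 CPM) overlapped at the top of the order. Astrocytes had 297 to 395 CPM and oligodendrocytes 0.00 to 17.0 CPM. The nearest genes were Fam110b (r = 0.88), Syne2 (0.87) and Egfr (0.87). Pde7a, at chr3:19223108-19311322, is its closest relative and varied less. Its level was 188, 248 and 338 CPM in BAM, above every other class compared in every library, and 55.9, 57.0 and 63.7 CPM in microglia. BAM exceeded microglia by 3.30 to 5.93 times within libraries. Ddhd2 (r = 0.86), Banp (0.86) and Kmo (0.83) had the nearest pattern.

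Pde10a, at chr17:8525187-8986648, is best known from the medium spiny neurons of the striatum. Neurons had 422, 978 and 1143 CPM, above fibroblasts at 85.0, 107 and 370 CPM and mural cells at 64.9, 78.1 and 125 CPM. Microglia had 6.94, 9.03 and 9.60 CPM, 0.705% to 2.27% of the neuronal level, while the summed neuronal markers in microglia were at 1.81% to 7.35% of their level in neurons. That sum is raised by Nrgn, whose median was higher in microglia (39.3 CPM) than in neurons (22.7 CPM). The markers Syt1 and Gad1 were at 1.46% and 1.12% of their neuronal level. The part of neuronal transcripts in the microglial Pde10a signal was not tested. Ftx (r = 0.93), Zfp618 (0.85) and Ccdc149 (0.85) were nearest. Pde4a, at chr9:21165700-21213248, was low throughout, from a median of 10.9 CPM in astrocytes to 47.8 CPM in neurons, and its ranges in neurons, BAM and fibroblasts overlapped with that in microglia (19.8, 27.0 and 30.6 CPM). Stau2 (r = 0.84), Cers6 (0.84) and Banp (0.83) were nearest to Pde4a.

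R241E and WT microglia differed most in Pde4d among the 8 genes. Pde4d had 234 and 263 CPM in the 2 R241E libraries and 510, 450 and 490 CPM in the 3 WT libraries. Both R241E libraries lay far under the lowest WT library. The group means were 248 ± 20.3 CPM (SD, n = 2) and 483 ± 30.8 CPM (SD, n = 3), a ratio of 0.514, and the fitted log2 fold change of R241E over WT was -0.98 (SE 0.10). It rested on 378 to 1950 UMIs per library. Because the list was built on this difference, it has no p-value here.

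**Figure D2:**
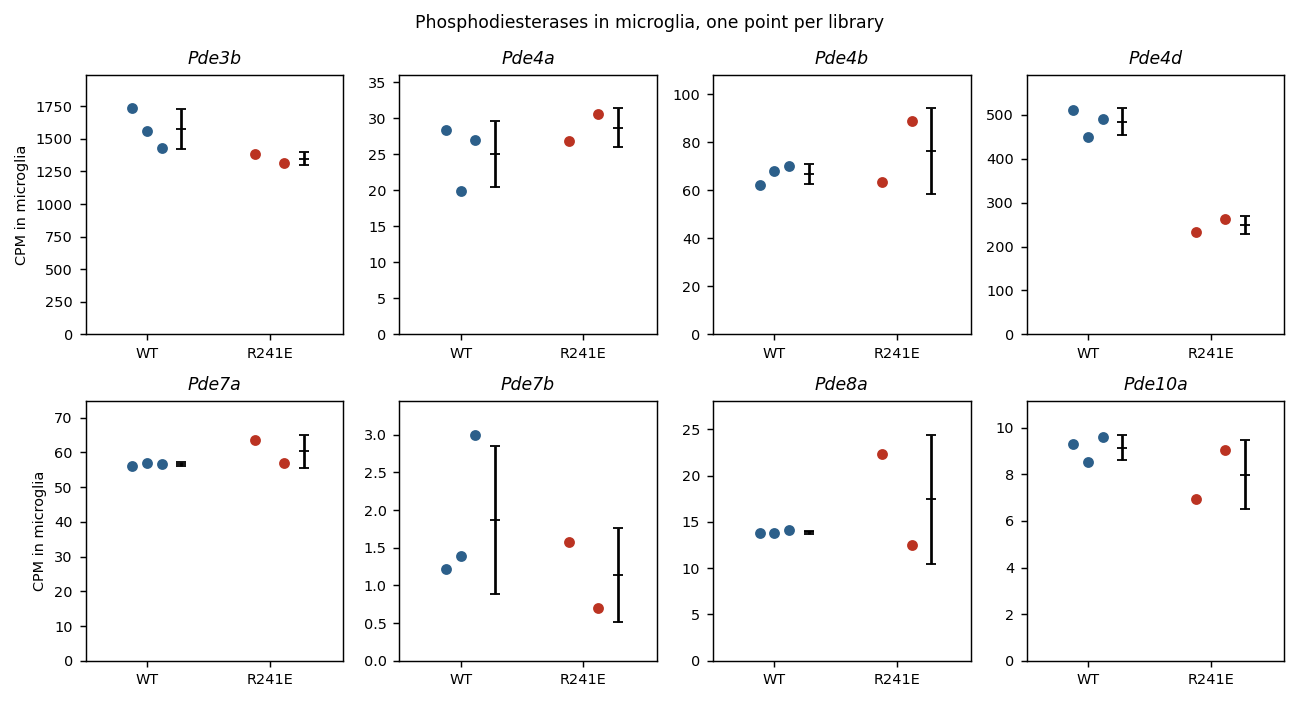
CPM of each gene in microglia, with a point per library for WT (blue, n = 3) and R241E (red, n = 2) and the group mean ± SD in black beside the points. Axes start at 0. The 2 R241E libraries have 234 and 263 CPM of Pde4d and the WT libraries 450 to 510 CPM.

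Pde3b had 1382 and 1313 CPM in R241E and 1733, 1563 and 1427 CPM in WT. The groups did not overlap, but the highest R241E library and the lowest WT library were close, and the log2 fold change was -0.24 (SE 0.10). Pde7a was at 63.7 and 57.0 CPM in R241E and 55.9, 57.0 and 56.7 CPM in WT, where the lower R241E library and the highest WT library were nearly equal (log2 fold change 0.10, SE 0.13). Pde4a (log2 fold change 0.18, SE 0.20), Pde4b (0.13, SE 0.15), Pde8a (0.41, SE 0.25) and Pde10a (-0.26, SE 0.30) overlapped between the groups. For Pde8a, 1 library decided the value, since R241E replicate 1 had 22.4 CPM and the other four libraries 12.5 to 14.1 CPM. Without that library its log2 fold change was -0.18. Pde7b, with 1 to 10 UMIs per library, did not pass the filter on low counts. In microglia 1 of the 7 genes that passed stood above all WT libraries and 2 below, and among all 12692 genes tested 20.0% stood above and 17.7% below. The median log2 fold change was 0.10 for the 7 genes and -0.0024 for all genes tested.

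Other classes' markers in the microglial nuclei also differed between the groups. The 9 BAM markers summed to 98.7 and 145 CPM in R241E and to 212, 218 and 240.6 CPM in WT microglia, at most 1.98% of their level in BAM, with Cd163 at 0 UMIs in both R241E libraries and in WT replicate 1. Most of that sum was Stab1, at 88.6 and 135 CPM in R241E and 191 to 227 CPM in WT. The other 8 markers together came to 10.1 and 9.73 CPM in R241E and 13.8 to 20.8 CPM in WT, at most 0.208% of their level in BAM. The 8 neuronal markers summed to 81.3 and 89.8 CPM in R241E and to 127 to 142 CPM in WT, and without Nrgn to 68.1 and 74.7 CPM and to 80.3 to 87.9 CPM. The 8 oligodendrocyte markers summed to 251 and 385 CPM in R241E and to 160 to 189 CPM in WT. All 8 markers of both lists were detected in every library. Without the 358 microglial nuclei that carried 2 or more neuronal marker UMIs, Nrgn included, the Pde4d log2 fold change was -0.99. The nuclei that stayed could still carry neuronal transcripts. The part of neuronal, mural, BAM and oligodendrocyte transcripts in the Pde4d value was not tested.

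The lower Pde4d level was also present in R241E microglia with no interferon-list UMI counted at a reduced depth. This divides the same counts that had chosen the list, as a description only. The study's 28-gene interferon list was counted in each microglial nucleus after thinning to 1000 UMIs, and nuclei were divided by whether they had 0, 1, or 2 or more of these UMIs. In R241E replicates 1 and 2, 599 and 257 nuclei had 2 or more and 162 and 110 had 0. In WT, 66, 132 and 142 nuclei had 2 or more and 633, 993 and 945 had 0. Pde4d stood at 228 and 272 CPM in the R241E nuclei with 0 and at 224 and 252 CPM in those with 2 or more. In WT it was 507, 456 and 488 CPM with 0 and 535, 430 and 442 CPM with 2 or more. All R241E values were under all WT values in each of the 3 bins, and the ratio of the group means was 0.517, 0.549 and 0.508 with 0, 1, and 2 or more UMIs. Within libraries, the log2 ratio of the highest bin to the lowest was -0.07 ± 0.06 in R241E (SD, n = 2) and -0.05 ± 0.12 in WT (SD, n = 3). With thinning to 1500 UMIs, which leaves 84 and 45 R241E nuclei with 0, the log2 ratio was -0.46 in R241E and -0.21 in WT. The R241E nuclei with 0 then had 321 and 337 CPM, between the other R241E nuclei and WT. With 4 or more UMIs as the upper bin, where WT had 9, 10 and 17 nuclei, the groups overlapped, at 194 and 234 CPM in R241E and 432, 259 and 201 CPM in WT (ratio of the means 0.720). An absence of these UMIs at such depths does not show that a nucleus had no response.

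**Figure D3:**
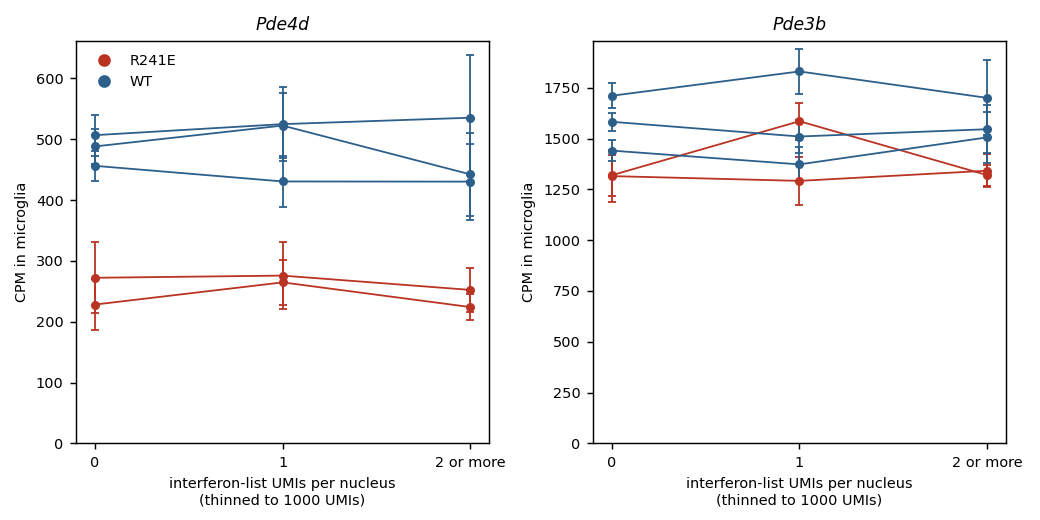
CPM of Pde4d (left) and Pde3b (right) in microglia with 0, 1, and 2 or more UMIs of the interferon list after thinning to 1000 UMIs, with a line per library (red, R241E, blue, WT) and bars for the 95% Poisson counting interval. The R241E lines of Pde4d run between 224 and 276 CPM and the WT lines between 430 and 535 CPM.

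The microglial Pde4d counts that had chosen the list were also divided by cluster, as a description that is not independent of that choice. The clusters were formed without phosphodiesterase genes, and the R241E mean of Pde4d was lower in 4 of 5. R241E microglia lay mostly in clusters led by Hyal5 and Tnfsf8 (700 nuclei), by C1qb and C1qa (336) and by Cxcl10 and Oasl1 (323), and WT microglia in those led by Myo18b (2130) and Gm3739 (1273). In the Myo18b cluster, Pde4d was at 203 ± 29.99 CPM in R241E (SD, n = 2, from 48 nuclei) and 491 ± 31.2 CPM in WT (SD, n = 3). In the C1qb cluster the means were 240 ± 9.18 and 512 ± 155 CPM, and in the Hyal5 cluster 270 ± 18.8 and 421 ± 102 CPM. The groups did not overlap in these 3 clusters, but some libraries had few counts. In the Myo18b cluster, R241E replicates 1 and 2 had 6 and 15 Pde4d UMIs. In the C1qb cluster, WT replicate 1 had 10 nuclei with 19 Pde4d UMIs (674 CPM). The groups overlapped in the Gm3739 cluster, where R241E replicate 2 had 478 CPM, inside the WT range. The fifth, the Cxcl10 cluster, held 14 WT nuclei with 3 Pde4d UMIs among them, too few for a comparison, and its R241E level was 188 ± 10.3 CPM.

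Outside microglia the members could be tested. R241E was compared with WT in 6 further classes by edgeR's quasi-likelihood test on summed counts, with p-values adjusted over all genes of a class by the Benjamini-Hochberg method. Of the members, 1 was called at an adjusted p under 0.05, Pde7b in BAM. There the R241E libraries had 1096 and 896 CPM and the WT libraries 784, 520 and 316 CPM. The groups did not overlap, as for 11.5% of the genes tested in BAM in this direction, and the WT libraries were spread widely (mean 540 ± 234 CPM, SD, n = 3, against 996 ± 141 CPM, SD, n = 2). The log2 fold change was 0.92 (SE 0.22, edgeR adjusted p = 0.042), and 0.988% of the 3946 genes tested in BAM were called. Fibroblasts and mural cells also carry Pde7b, and in BAM their summed markers came to 12.2 and 31.5 CPM (fibroblasts) and 27.6 and 39.3 CPM (mural cells) in R241E. In WT they were 6.53 to 18.8 and 0.00 to 23.0 CPM. None of these sums exceeded 0.919% of the level in those classes. The call was lost without R241E replicate 1 (log2 fold change 0.76, adjusted p = 0.24), without WT replicate 2 (0.91, adjusted p = 0.42) and without WT replicate 3 (0.64, adjusted p = 0.21), and with DESeq2's Wald test (0.91, adjusted p = 1.0).

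**Figure D4:**
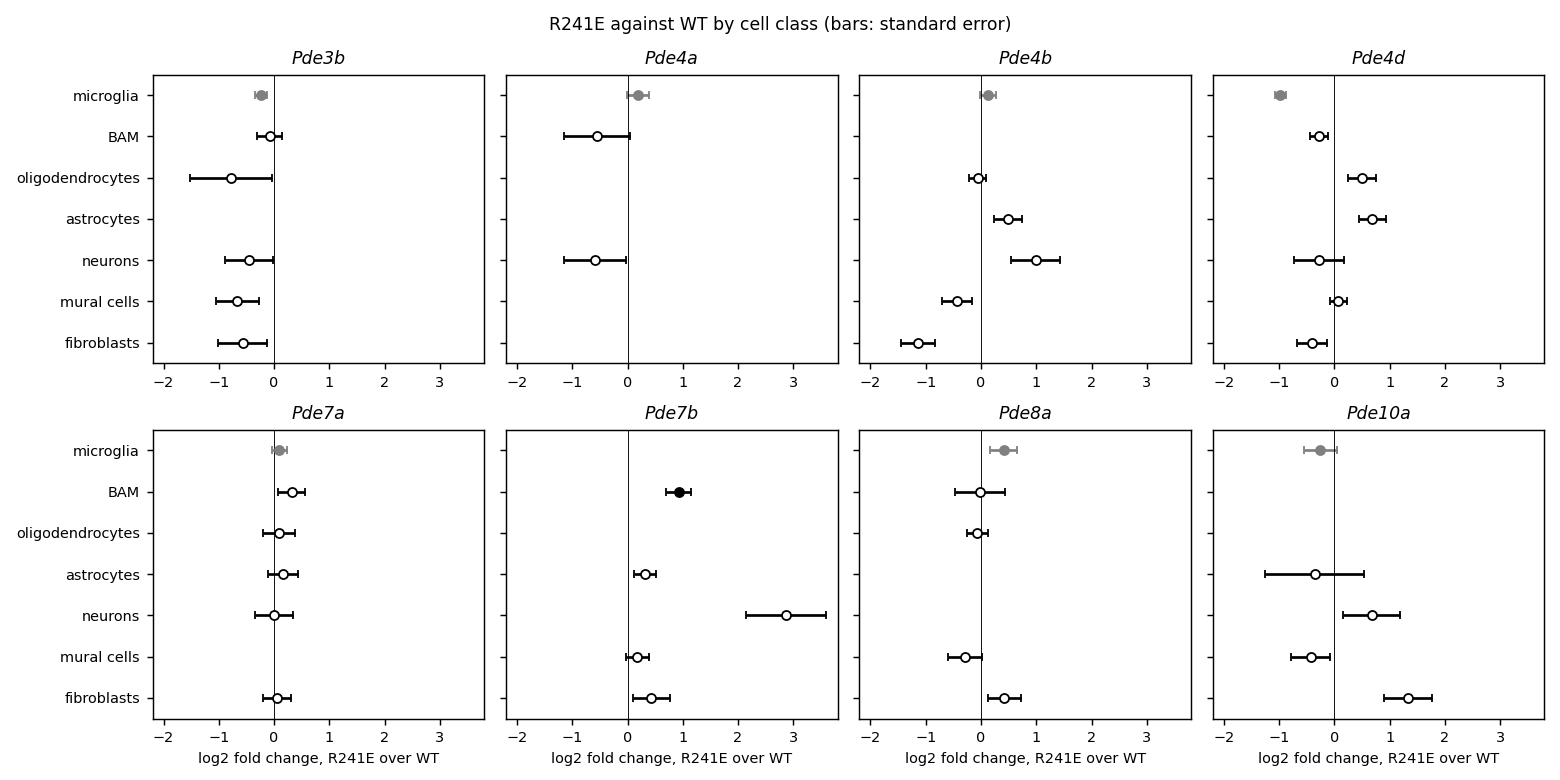
Fitted log2 fold change of R241E over WT for each gene and class, with bars for the standard error, grey for microglia (description only), open black for tested and not called and filled black for called by edgeR at an adjusted p under 0.05. Only Pde7b in BAM is filled, and genes that did not pass the filter on low counts in a class have no point.

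Pde4d was not called in any of the 6 other classes. In BAM, which the driver also reaches, it had 876 and 818 CPM in R241E and 1150, 1028 and 961 CPM in WT, with a fold of -0.29 on the log2 scale (SE 0.16, edgeR adjusted p = 0.71). R241E lay under all WT libraries by a narrow margin, as did 12.2% of the genes tested in BAM. In astrocytes it had 946 and 789 CPM in R241E and 714, 492 and 451 CPM in WT, both R241E libraries being higher, by 0.69 on the log2 scale (SE 0.24, edgeR adjusted p = 0.32). Also, 10.3% of the genes tested in astrocytes stood above all WT libraries. The astrocytes of both groups came from the same 2 clusters, in shares that differed between libraries. These were led by Itih3 and Slc6a11 and by Thbs4 and Myoc. The former held 172 of 175 and 84 of 126 astrocytes in R241E replicates 1 and 2. In WT replicates 1, 2 and 3 it held 37 of 63, 18 of 58 and 28 of 144. Within the former, the R241E libraries had 960 and 1000 CPM of Pde4d and the WT libraries 862, 819 and 851 CPM. In the latter it was at 342 and 361 CPM in R241E, the first from 3 nuclei, and 554, 329 and 335 CPM in WT, and the groups overlapped. The log2 fold change was 0.07 (SE 0.16) in mural cells, -0.28 (SE 0.45) in neurons, 0.50 (SE 0.25) in oligodendrocytes and -0.41 (SE 0.27) in fibroblasts, with adjusted p of 0.87 to 1.0 by edgeR. Without WT replicate 1, or without the filter on low counts, Pde4d was called in astrocytes. In these settings 64 of 7600 and 143 of 19603 genes tested in astrocytes were called higher.

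No other member was called outside microglia. Of 5 members tested in astrocytes, 7 in fibroblasts, 6 in mural cells, 7 in neurons and 5 in oligodendrocytes, 0 were called by edgeR in each class, against 0.496%, 0.0172%, 0.0%, 0.0784% and 0.285% of all genes. At an unadjusted edgeR p under 0.05 there were 1, 2, 0, 1 and 0. Of all genes tested, 737 of 7857 in astrocytes, 413 of 5809 in fibroblasts and 174 of 3862 in mural cells were under it. In neurons there were 566 of 5104 and in oligodendrocytes 285 of 5613. DESeq2 called 0 members in each class except neurons, where it called Pde7b. Of all 5104 genes tested in neurons it called 40 higher and 10 lower, against 4 and 0 with edgeR. Pde7b had 512 and 141 CPM in R241E neurons and 70.8, 18.5 and 16.9 CPM in WT neurons (log2 fold change 2.87, SE 0.72, edgeR adjusted p = 0.22), and 15.7% of the genes tested in neurons stood above all WT libraries. Those neurons were of different clusters, 8 and 22 nuclei of the Gabra6 cluster in R241E replicates 1 and 2 against 2 to 6 in WT, and 2 and 5 nuclei of the cluster led by Hs3st4 against 14 to 147 in WT. The 2 members at an unadjusted p under 0.05 in fibroblasts were Pde10a, where R241E replicate 2 stood alone at 370 CPM against 85.0 to 112 CPM in the other libraries, and Pde4b, at 46.9 and 76.0 CPM in R241E and 149, 159 and 108 CPM in WT (log2 fold change -1.13, SE 0.31, edgeR adjusted p = 0.33), where 12.6% of the genes tested stood below all WT libraries. Fibroblasts, too, differed in their mix of clusters by library. The cluster led by Bglap and Adh1 held 25 nuclei of R241E replicate 2 and 0 to 10 of the others, and the one led by Slc47a1 held 104 of 167 fibroblasts in R241E replicate 1 and 9 of 30 in WT replicate 1. Pde10a was called in fibroblasts without R241E replicate 1 and Pde4b without R241E replicate 2, when the lone R241E library is assumed to vary like the others.

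In oligodendrocytes, where Pde4b and Pde8a were highest, no difference was called. Pde4b had 7802 and 7870 CPM in R241E and 9692, 7860 and 6883 CPM in WT (log2 fold change -0.06, SE 0.15), and Pde8a a log2 fold change of -0.07 (SE 0.19). The edgeR adjusted p was 1.0 for both, and in both the groups overlapped.

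The remaining genes of cyclic nucleotide signalling were tested in microglia from 8 lists with 128 genes, of which 75 passed the filter on low counts. Of these, 4 were called higher and 6 lower in R241E by edgeR. Over all 12692 genes tested in microglia, 5.7% were called higher and 3.12% lower (8.82% in all), and the median log2 fold change was -0.01 for the 75 genes. The counts changed with single libraries, as did those of all genes. Without WT replicates 1, 2 and 3 there were 1, 2 and 6 pathway genes higher, and 569, 507 and 939 of all genes. DESeq2's Wald test called 1 higher and 5 lower, and of all 12692 genes tested 521 higher and 256 lower.

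**Figure D5:**
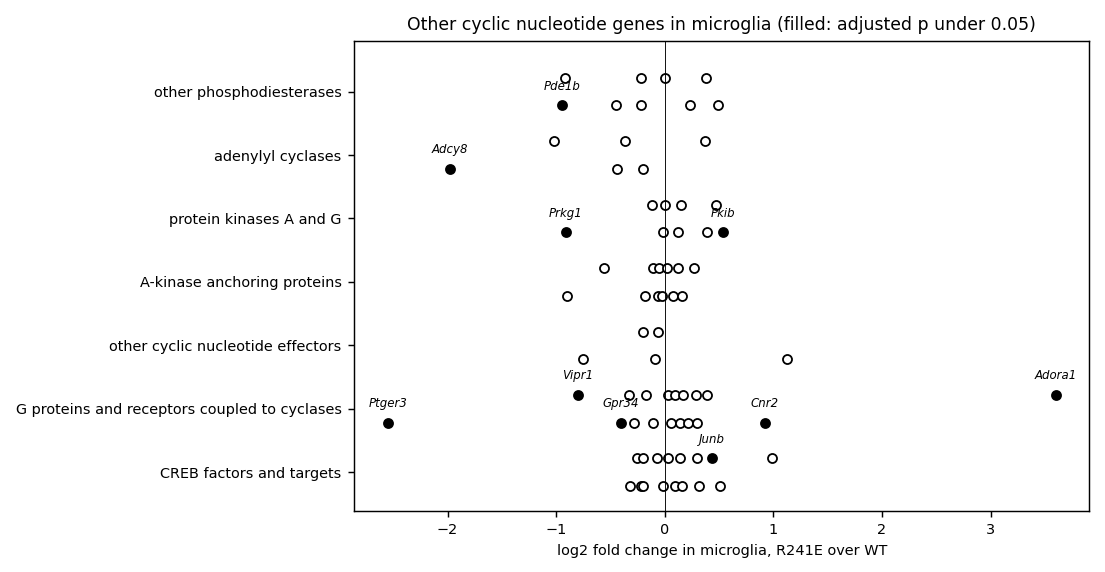
Fitted log2 fold change of R241E over WT in microglia for the 75 genes of the cyclic nucleotide lists that passed the filter, with a point per gene and filled points for genes called by edgeR at an adjusted p under 0.05. Adora1 (3.60) lies farthest to the right and Ptger3 (-2.55) and Adcy8 (-1.98) farthest to the left.

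Among the 16 other phosphodiesterases, 9 were tested and 1 was called. Pde1b, a calcium- and calmodulin-activated enzyme and the only tested one whose highest class was microglia besides Pde6h, fell from 79.8, 77.5 and 87.9 CPM in WT to 45.7 and 38.2 CPM in R241E (log2 fold change -0.94, SE 0.14, edgeR adjusted p = 0.00031). The groups were well apart. The median log2 fold change of the list was -0.22. Most of the others belonged elsewhere, Pde3a, Pde5a and Pde8b being highest in mural cells with medians of 293, 324 and 4377 CPM, and Pde1a in fibroblasts with 536 CPM.

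Among 10 adenylyl cyclases, which make cyclic AMP, 6 were tested and 1 fell. Adcy8, a calcium-stimulated cyclase, had 10.1 and 27.8 CPM in R241E and 71.3, 68.5 and 52.2 CPM in WT (log2 fold change -1.98, SE 0.28, edgeR adjusted p = 0.00024). Astrocytes had a median of 392 CPM of Adcy8, and the summed astrocyte markers in microglia were 289 to 325 CPM in R241E and 293 to 362 CPM in WT. Most of that sum was Slc1a3, and the other 7 markers came to 75.0 and 80.7 CPM in R241E and 63.0 to 87.1 CPM in WT. The part of astrocyte transcripts in the Adcy8 value was not tested. Adcy7, a cyclase typical of blood cells, had 108 and 117 CPM in R241E and 79.0 to 92.7 CPM in WT without being called (log2 fold change 0.37, edgeR adjusted p = 0.056), and Adcy9 had 114 and 122 CPM against 132 to 167 CPM (-0.37, edgeR adjusted p = 0.087). None of the 11 guanylyl cyclase genes passed the filter.

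Of 11 genes of protein kinases A and G and their inhibitors, 9 were tested, 1 fell and 1 rose. Prkg1, protein kinase G, fell from 190, 160 and 174 CPM in WT to 81.0 and 110 CPM in R241E (log2 fold change -0.91, SE 0.13, edgeR adjusted p = 0.00030). Its median level was 4424 CPM in mural cells, 978 CPM in fibroblasts and 420 CPM in BAM. In microglia the summed mural markers were at 30.6 and 34.0 CPM in R241E and 17.0 to 23.4 CPM in WT, the fibroblast markers at 5.04 and 14.6 CPM and 2.54 to 7.50 CPM, and the BAM markers are given above. The part of these classes in the Prkg1 value was not tested. Pkib, an inhibitor of protein kinase A, rose from 40.9, 40.8 and 50.4 CPM to 68.1 and 59.1 CPM (log2 fold change 0.54, SE 0.15, edgeR adjusted p = 0.030), a call lost without R241E replicate 1 (0.40), WT replicate 1 (0.50) or WT replicate 2 (0.48). The catalytic and regulatory subunits of protein kinase A stayed uncalled, with log2 fold changes from -0.11 (Prkacb) to 0.47 (Prkar1b).

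Receptors and G proteins held 5 of the called genes, among 18 tested from a list of 27. Ptger3, the prostaglandin E receptor EP3 that lowers cyclic AMP, fell from 15.0, 13.6 and 10.5 CPM to 1.58 and 3.47 CPM (log2 fold change -2.55, SE 0.41, edgeR adjusted p = 0.00069), and at -1.91 it was no longer called without R241E replicate 1 (adjusted p = 0.066). Adora1, an adenosine receptor that also lowers cyclic AMP, rose from 1.22, 0.00 and 0.90 CPM to 9.14 and 5.56 CPM (log2 fold change 3.60, SE 0.64, edgeR adjusted p = 0.0017). It was a rare transcript, with 0 to 3 UMIs in the WT libraries and 29 and 8 in R241E, so its fitted fold depends on how zeros are treated. Oligodendrocytes had a median of 27.5 CPM of it. Gpr34, a microglial receptor for lysophosphatidylserine, fell from 863, 851 and 1044 CPM to 638 and 765 CPM (log2 fold change -0.41, SE 0.11, edgeR adjusted p = 0.027), and the call was lost without R241E replicate 1 (-0.29) or WT replicate 2 (-0.45). Cnr2, the cannabinoid receptor of immune cells, rose from 10.1, 10.6 and 11.1 CPM to 24.0 and 14.6 CPM (log2 fold change 0.92, SE 0.25, edgeR adjusted p = 0.027). When R241E replicate 1 was left out, its log2 fold change was 0.43 and the call was lost, as it was without WT replicate 1 (0.90) or WT replicate 2 (0.93). Vipr1, a receptor for vasoactive intestinal peptide, was at 12.9 and 10.4 CPM in R241E and 20.7, 17.8 and 24.6 CPM in WT (log2 fold change -0.80, edgeR adjusted p = 0.047), a call lost with any of the 5 libraries left out (-1.02 to -0.67). Gnas, which encodes the stimulatory G protein, had a log2 fold change of 0.06.

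Of 22 CREB factors and targets, 16 were tested and 1 rose. Junb went from 93.6, 87.9 and 108 CPM to 121 and 145 CPM (log2 fold change 0.44, SE 0.12, edgeR adjusted p = 0.033), a call that held only without WT replicate 3 when libraries were left out in turn (0.32 to 0.57). Creb1 (log2 fold change 0.14), Crem (-0.22) and Nr4a2 (-0.32) were not called. Among 12 of 13 A-kinase anchoring proteins tested and 5 of 18 other effectors tested, edgeR called 0, with 2 and 1 at an unadjusted p under 0.05. Of all 12692 genes tested in microglia, 2573 were under that unadjusted edgeR p. Pde4dip, which anchors PDE4D, had 163 and 154 CPM in R241E and 121 to 138 CPM in WT (log2 fold change 0.27, edgeR adjusted p = 0.13).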

How the data were processed

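Per the file headers, the authors made the deposited UMI counts with Cell Ranger 7.0.0, and the labels name mm10. Use of intronic reads or strand is not given in the sources used here, so overlapping genes cannot be separated. Nuclei with at least 200 genes, under 4500 genes, under 10000 UMIs and under 5% mitochondrial UMIs were kept (9505). They were clustered with scanpy 1.11.5 (3000 variable genes, 30 components, 20 neighbours, resolution 1) without the 24 phosphodiesterase genes, and named from markers (3 detected, mean log2 fold of 2). Scrublet called 47 nuclei as doublets, too few for a working caller, so the upper limits served instead. At most 2 barcodes were shared by any pair of libraries. The members and gene lists were chosen with earlier results of these data known.

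Nuclei of a mouse are not replicates, so their counts were added up for every class and library and tested with edgeR 4.0.16 in R 4.3.3 (TMM, filterByExpr, quasi-likelihood test, genotype as the only term) and Benjamini-Hochberg adjustment, at an adjusted p under 0.05. Each SE was the absolute log2 fold change divided by the square root of the F statistic of that test. This includes the microglial members, for which no p-value is given. DESeq2 1.42.0 was an alternative. The study's own test, run per nucleus, was not used. The scripts were checked on simulated counts. Besides the members, the text names the called genes with the smallest adjusted p in each list (up to 4) and the 3 genes nearest to each member by Pearson r among those with a mean of at least 10 CPM. Further genes were named after their values were seen. Counting intervals cover counting error only. Clusters kept from a class for their leading genes, or by the thresholds set after seeing the data, held 250 and 102 nuclei in R241E and 71, 62 and 65 in WT. The labels' text on H151 and DMSO is assigned to no sample and was not used.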

Additional observations from a re-analysis of the deposited data

Results flagged for a closer look

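In 3 pairs of classes every R241E library stood on one side of all WT libraries in the first class and on the other side in the second. Of all genes tested, 10.3% in astrocytes and 15.7% in neurons stood above all WT libraries. In microglia, BAM and fibroblasts, 17.7%, 12.2% and 12.6% stood below all of them. How many of all genes lay on opposite sides in a pair of classes was not counted. No test compared the 2 classes of a pair, and the microglial values had chosen the genes. Outside microglia, edgeR called neither Pde4d nor Pde4b in those classes. Its adjusted p was 0.32 for Pde4d in astrocytes, 0.71 for Pde4d in BAM, 0.48 for Pde4b in neurons and 0.33 for Pde4b in fibroblasts. Pde4d was higher in R241E astrocytes (log2 fold change 0.69) and lower in R241E microglia (-0.98), a gap of 1.67 on the log2 scale. For the astrocytes against BAM (-0.29) the gap was 0.97. The mix of astrocyte clusters differed between libraries, and its part in the astrocyte value was not tested. Within the Itih3 cluster Pde4d was at 960 and 1000 CPM in R241E and 819 to 862 CPM in WT. Within the Thbs4 cluster the groups overlapped. Pde4b was higher in R241E neurons (log2 fold change 0.99) and lower in R241E fibroblasts (-1.13), a gap of 2.12, with neurons and fibroblasts of few nuclei in some libraries (53 neurons in R241E replicate 2 and 30 fibroblasts in WT replicate 1). Groups of 2 and 3 libraries were too small for a search for outlying samples.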

How the results depend on the processing

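The Pde4d log2 fold change in microglia lay between -1.05 and -0.90 in all 15 alternatives, including each library left out, where a lone R241E library is assumed to vary like the WT ones. All of these reuse the counts that had chosen the list, so the range is a description only. All 8 genes kept their highest class in all 9 alternatives tried for it. Pde7b in BAM kept its direction throughout, at 0.64 to 1.29 with a library left out, but was not called with DESeq2's Wald test (0.91), the upper limits lifted (0.87) or the top Scrublet scores left out (0.95). The number of members called was then 0 in BAM, and 0 to 1 with a library left out in BAM, astrocytes and fibroblasts. Without the filter on low counts 1 member was called in astrocytes (Pde4d), 1 in fibroblasts (Pde10a) and 1 in neurons (Pde7b), which DESeq2 and the replicate block also called (1 each). All-gene calls rose as well. Without the filter 143, 68 and 203 genes were called higher in these classes and 120, 23 and 103 lower. In neurons DESeq2 called 40 higher and 10 lower and the replicate block 151 and 95, against 4 and 0 in the main fit. Of the pathway genes in microglia, 4 were called higher and 6 lower, against 1 higher with DESeq2, 0 higher after thinning to 1000 UMIs, and 0 to 6 higher and 3 to 6 lower with a library left out, the lowest counts being those without R241E replicate 1. Junb, Vipr1, Pkib, Cnr2, Gpr34 and Ptger3 each lost the call in at least 1 of these, with directions kept. Among the members not tested in microglia, Pde4b and Pde8a turned sign with a library left out (-0.08 to 0.38 and -0.18 to 0.68), as did Pde7a (-0.02 to 0.16, and -0.15 after thinning). The replicate block gave 9 pathway genes higher and 10 lower in microglia. Over all 12692 genes tested there it gave 1206 higher and 807 lower, against 723 and 396 in the main fit. Thinning gave 447 higher and 231 lower of 10081. The titles number the mice but state no pairing. Deviations of same-numbered libraries correlated at 0.10 and -0.02. With 2 R241E libraries these deviations mirror each other, so the correlations cannot decide whether the numbers pair the samples. The Pde4d log2 ratio of microglia in the upper interferon bin to those with 0 list UMIs changed with the setting. It was -0.23 in R241E and -0.78 in WT with 4 or more UMIs as the upper bin, where WT had 9, 10 and 17 nuclei. With thinning to 1500 UMIs it was -0.46 in R241E and -0.21 in WT. With 2 R241E mice, and 13 to 57 R241E nuclei per library in the 2 clusters that hold most WT microglia, levels of rare genes and of rare classes are limited by depth.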
